A study of Caenorhabditis elegans with 3 samples.

Results

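The 4 genes gsp-1, gsp-2, gsp-3 and gsp-4 encode catalytic subunits of protein phosphatase 1 (PP1) in Caenorhabditis elegans, and were taken by name from a count table of 46739 genes. PP1 removes phosphate from serine and threonine. The same small catalytic subunit serves many processes, and the protein it binds decides where it acts. In the worm, GSP-1 and GSP-2 are made in many tissues. On meiotic chromosomes they work with LAB-1 to keep the Aurora B kinase AIR-2 away from sites where cohesion must last, and they also act in mitosis and at centrosomes. GSP-3 and GSP-4 are closely related to each other and are known from sperm, where they are needed for chromosome segregation in sperm meiosis and for the movement of the crawling sperm cell.

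The RNA came from dissected germlines of N2 (wild-type) worms, the standard laboratory strain. There was 1 group of 3 libraries, without any mutant, treatment or other tissue. The labels give no age or sex. They leave unsaid whether the numbered samples were dissected from different animals or grown apart, and the spread given below may thus be technical. The libraries were made with a kit for very low RNA input that copies whole transcripts and amplifies them by PCR. In bulk RNA of this kind, fewer cells of a type and less RNA per cell cannot be told apart.

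The deposited values are read counts per gene, with library totals of 14523486, 15566299 and 16656171, which were scaled here to CPM, the count a gene would have in a library of 1000000 counts. Oocyte markers and germ cell markers were abundant in every library, at summed levels of 9770 to 11776 CPM over 5 genes and 1878 to 2978 CPM over 4 genes. The libraries stood apart in other markers. The summed level of 7 sperm markers was 499.5, 58.97 and 217.4 CPM in libraries 1, 2 and 3. It was carried by ssp-10, at 428.1, 48.4 and 177.3 CPM, and 3 of the 7 reached 1 CPM in every library. That of 3 hypodermis markers was 526.5, 39.2 and 101.6 CPM, carried by the collagen genes col-19 and col-140, with dpy-7 at 2, 0 and 0 counts. The yolk genes vit-2 and vit-6 went the other way, and the 4 intestine markers summed to 225.2, 1001 and 522.6 CPM, with the intestinal regulator gene elt-2 at no more than 3 counts.

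The genes form 2 pairs by their annotated structure, which the choice of members did not use. On the WBcel235 build, gsp-1 (WBGene00001747) lies on the plus strand of chromosome V from 10682422 to 10686537, and gsp-2 (WBGene00001748) on the plus strand of chromosome III from 7336587 to 7338765. Both sperm genes lie on the minus strand of chromosome I, gsp-3 (WBGene00021113) from 4709259 to 4710712 and gsp-4 (WBGene00020187) from 3838237 to 3839673. They are not tandem copies, since 869585 bases and 171 protein-coding genes lie between them.

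The coding parts of gsp-3 and gsp-4 were the same length in every exon. Each has 3 coding exons of 456, 393 and 66 bases behind a first exon that does not code, giving 305 codons before the stop. The gene for GSP-1 has 5 coding exons and 329 codons, and that for GSP-2 has 7 coding exons and 333 codons. Coding exons 2 and 3 of this pair are 132 and 231 bases long in both genes. The fourth exon of gsp-1, of 464 bases, is as long as exons 4 to 6 of gsp-2 together (215, 114 and 135 bases). From the stop codon to the end of the longest transcript, 691 bases are annotated in gsp-1 and 579 in gsp-2, against 100 and 155 bases in gsp-3 and gsp-4. Introns are longest in gsp-1, with 2331 bases in all, and sum to 565, 343 and 286 bases in the other three genes in number order.

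**Figure D1:**
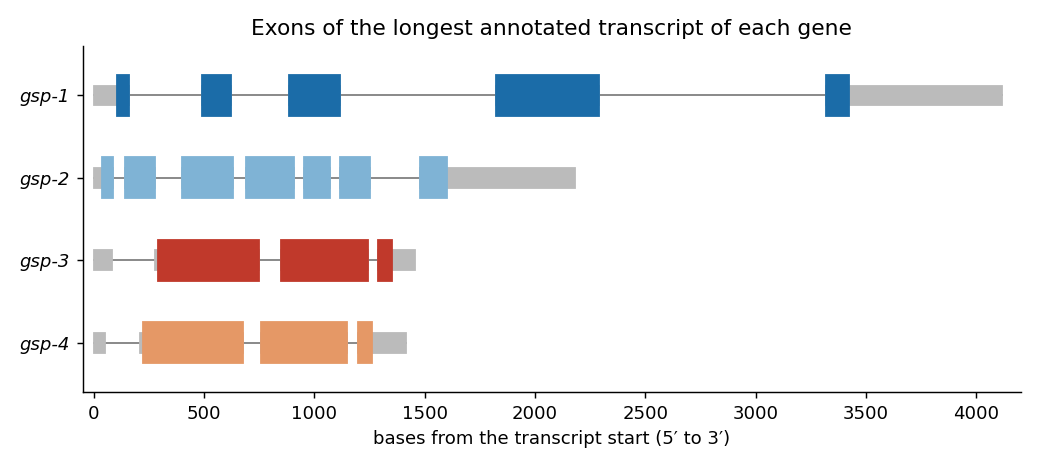
Exons of the longest annotated transcript of each gene, drawn to scale in bases from the transcript start, with coding parts as tall coloured blocks, untranslated parts as low grey blocks and introns as lines. The coding blocks of gsp-3 and gsp-4 have the same lengths, 456, 393 and 66 bases, while gsp-1 spans 4116 bases and ends in the longest untranslated part.

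The most constant of the 4 genes was gsp-1, which is the PP1 gene known to be essential for embryonic development. It had 1387, 1525 and 1631 counts, or 95.5, 98.0 and 97.9 CPM in libraries 1, 2 and 3. On the column totals the 3 libraries were level, with a mean of 97.1 ± 1.41 CPM (SD, n = 3). The coefficient of variation was 1.45%, below the 2.57% that counting error alone would give. Other scalings gave a wider spread, above counting error, with an SD of 5.02 CPM by edgeR TMM and 3.97 CPM by DESeq2 size factors. Among 10130 protein-coding genes with a mean count of at least 10, 0.898% had a smaller coefficient of variation on the column totals. Among the 2431 of these genes whose level lay within a factor of 2 of that of gsp-1, the median coefficient of variation was 9.45%.

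Its paralogue gsp-2, which partners LAB-1 in meiosis, had 399, 529 and 416 counts, or 27.5, 33.98 and 24.98 CPM. Library 2 was the highest, 1.24-fold above library 1, and the mean was 28.8 ± 4.65 CPM (SD, n = 3). Its coefficient of variation of 16.1% exceeded the counting error of 4.73%, and 65.2% of genes of like level varied less. The ratio of library 1 to library 2 was 0.808 with a 95% exact binomial interval of 0.708 to 0.922, whereas for gsp-1 it was 0.975 with an interval of 0.906 to 1.05. Such intervals cover counting error only, since PCR copies of 1 molecule cannot be recognised without molecular identifiers.

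The sperm gene gsp-3 differed widely between the libraries. It had 5132, 271 and 2260 counts, or 353.4, 17.4 and 135.7 CPM in libraries 1, 2 and 3. Library 1 was 20.3-fold above library 2 (95% exact binomial interval 17.96 to 23.02), and library 3 lay between them, 7.79-fold above library 2 (6.87 to 8.87). The mean of 168.8 ± 170.4 CPM (SD, n = 3) therefore describes none of the libraries, and became 76.5 CPM without library 1 and 244.5 CPM without library 2.

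Its near copy gsp-4 had 3153, 252 and 1183 counts, or 217.1, 16.2 and 71.0 CPM. The order of the libraries was that of gsp-3, with library 1 13.4-fold above library 2 (11.8 to 15.3) and library 3 4.39-fold above it (3.83 to 5.05). The mean was 101.4 ± 103.9 CPM (SD, n = 3), 43.6 CPM without library 1 and 144.1 CPM without library 2. For gsp-3 and gsp-4, 99.1% and 99.2% of genes of like level varied less between the libraries. Even in library 2 both were well above the limit that a count of 0 allows there, 0.193 CPM for 3 counts.

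**Figure D2:**
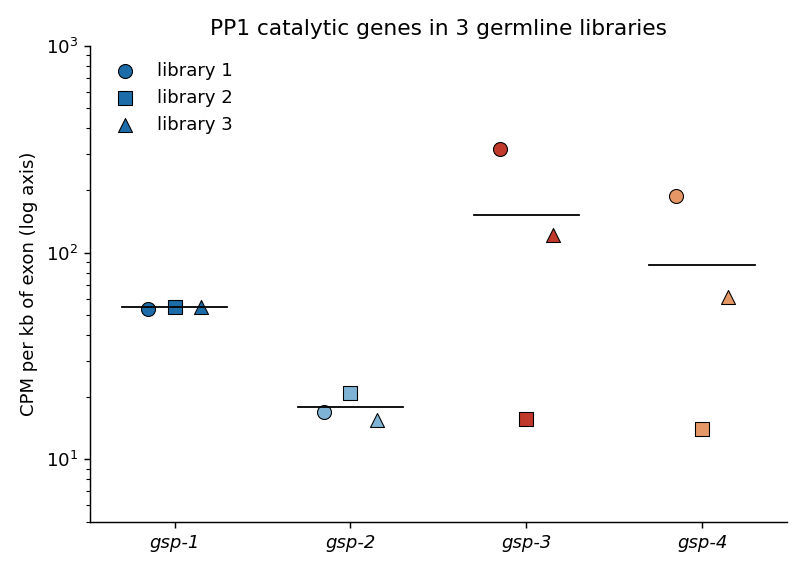
CPM per kilobase of exon on a log axis for each of the 4 genes, with 1 point per library (circle, square and triangle for libraries 1, 2 and 3) and the mean as a line. The points of gsp-1 lie at nearly the same height, between 53.5 and 54.9, while those of gsp-3 run from 15.6 to 316.9, with library 2 lowest for gsp-3 and gsp-4.

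To compare the genes with each other, CPM were divided by the length of all annotated exons of a gene, 1785, 1614, 1115 and 1158 bases for gsp-1 to gsp-4. Per kilobase of exon, gsp-1 had 53.5, 54.9 and 54.9 CPM in libraries 1, 2 and 3, and gsp-2 had 17.02, 21.1 and 15.5 CPM. On the same scale gsp-3 had 316.9, 15.6 and 121.7 CPM and gsp-4 had 187.5, 14.0 and 61.3 CPM. The order was gsp-3, gsp-4, gsp-1, gsp-2 in libraries 1 and 3, and gsp-1, gsp-2, gsp-3, gsp-4 in library 2. Among 20116 protein-coding genes with a length, gsp-1 ranked between 1913 and 2014 in the 3 libraries, whereas gsp-3 ranked 358, 4563 and 888.

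Within the first pair, gsp-1 exceeded gsp-2 in 3 of 3 libraries, by 3.14-, 2.61- and 3.55-fold per kilobase of exon. The mean log2 ratio was 1.62 ± 0.22 (SD, n = 3), far larger than its spread. Within the sperm pair, gsp-3 exceeded gsp-4 in 3 of 3 libraries, by 1.69-, 1.12- and 1.98-fold, a mean log2 ratio of 0.64 ± 0.43 (SD, n = 3). With 3 libraries a two-sided exact sign-flip permutation test cannot go below p = 0.25, which both pairs gave (adjusted p = 0.75 over the 6 pairs of members). The other 4 pairs crossed between the kinds of gene, and in each the gene that led in libraries 1 and 3 was not the one that led in library 2.

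The split of reads within the sperm pair also differed between libraries. Of the reads counted on gsp-3 or gsp-4, gsp-3 took 61.9% in library 1 (95% exact binomial interval 60.9 to 62.99, 8285 reads), 51.8% in library 2 (47.4 to 56.2, 523 reads) and 65.6% in library 3 (64.03 to 67.2, 3443 reads). Library 2 was the lowest, and its interval did not overlap the others. How reads that match both genes were counted is not given in the sources used here, so the split between these close copies, and the level of each, is uncertain, and their sum is uncertain where such reads were dropped. The summed counts gave 570.5, 33.6 and 206.7 CPM for the sperm pair and 123.0, 131.9 and 122.9 CPM for gsp-1 with gsp-2. Of the reads counted on gsp-1 or gsp-2, the share of gsp-1 was also lowest in library 2. It was 77.7% (75.7 to 79.6), 74.2% (72.3 to 76.1) and 79.7% (77.9 to 81.4) in libraries 1, 2 and 3.

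The make-up of PP1 catalytic transcripts therefore differed from library to library. Per kilobase of exon, gsp-3 and gsp-4 together took 87.7%, 28.0% and 72.2% of the total over the 4 genes in libraries 1, 2 and 3. This was 7.15 times the level of gsp-1 with gsp-2 in library 1, 0.39 times in library 2 and 2.60 times in library 3. The first pair varied by a factor of 1.08 on this scale and the sperm pair by 17.04. The sperm genes held most of the total in libraries 1 and 3, and gsp-1 alone held 52.0% of it in library 2.

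**Figure D3:**
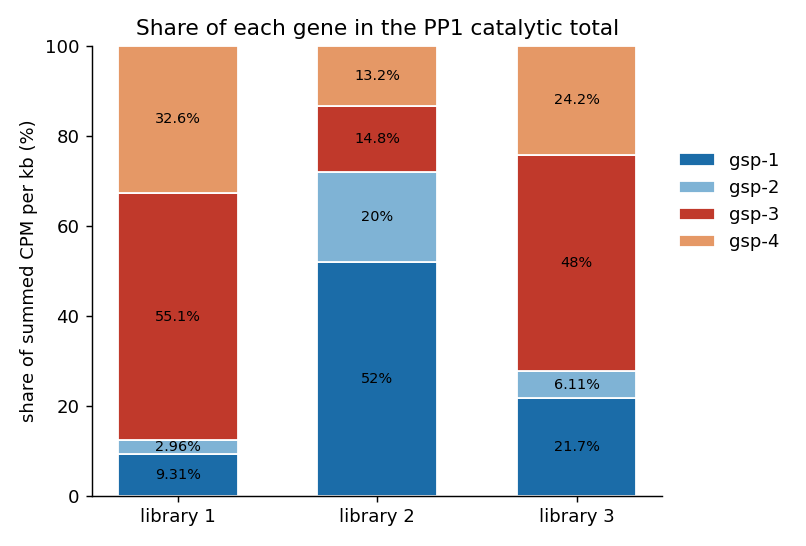
Share in percent of each gene in the summed CPM per kilobase of exon of the 4 PP1 genes, with 1 bar per library. The sperm genes gsp-3 and gsp-4 fill 87.7% of the bar of library 1, 28.0% of library 2 and 72.2% of library 3.

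In libraries 1 to 3 the sperm pair had the same order of levels as most other sperm genes examined. A list of 67 genes of sperm function, which includes the major sperm protein (MSP) genes that build the sperm cytoskeleton, was detected at 1 CPM or more in every library in 52 cases, against 40.2% of all protein-coding genes. The most abundant by CPM were msp-59, msp-152 and msp-31, with msp-59 at 2311, 285.6 and 703.6 CPM, and the lowest was msd-1, at 2, 0 and 2 counts. Of 63 members with a mean count of at least 10, 58 were at least 2-fold lower in library 2 than in library 1, as were 16.3% of all 10130 protein-coding genes of that depth. The median ratio of library 1 to library 2 was 8.48 over these members and 0.983 over all genes of that depth with counts in every library. Both gsp-3 and gsp-4 met the same criterion, and gsp-1 and gsp-2 did not. Many MSP genes are near-identical copies, so their single counts are uncertain too.

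The difference between libraries 1 and 2 was larger for gsp-3 than for all but 1 of the 63 sperm genes. The gene above it was msp-74, which rests on 62, 2 and 32 counts. For gsp-4 it was larger than for all but 7, which included the Argonaute genes alg-3 and alg-4 of the small RNA pathway of spermatogenesis. The gene alg-3 had 75.5, 4.88 and 44.6 CPM, and alg-4 had 80.4, 5.91 and 42.2 CPM. The kinase gene gskl-2, which the deposited table lists as gska-3, had 46.3, 2.83 and 27.7 CPM. In these genes the ratio of library 1 to library 2 ran from 13.6 to 16.4, between those of gsp-4 and gsp-3 and above the 8.09 of msp-59. Between libraries 1 and 3, by contrast, gsp-3 differed 2.60-fold and gsp-4 3.06-fold, near the list median of 2.59, and 31 and 20 of the 63 sperm genes differed by more. At 2-fold, 11.7% of all genes were lower in library 3 than in library 1.

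Not all genes with roles in sperm had this pattern. The 5 members that were not at least 2-fold lower in library 2 were the kinase gene spe-6, the transcription factor gene spe-44, spe-5, spe-39 and swm-1. The first of these had 16.7, 18.4 and 22.2 CPM, and spe-44 had 25.8, 27.2 and 35.1 CPM. All 5 were highest in library 3, and their ratios of library 1 to library 2 ran from 0.911 to 1.03. The collagen genes col-19 and col-140 had ratios of library 1 to library 2 of 11.7 and 13.9, as large as those of the sperm genes, and vit-2 and vit-6 had 0.24 and 0.21. The part of these tissues in the values of gsp-3 and gsp-4 was not tested. The summed level of 3 muscle markers, 385.8, 237.8 and 229.0 CPM, and that of 4 markers of the gonadal sheath and spermatheca, 474.5, 411.2 and 568.8 CPM, varied far less.

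**Figure D4:**
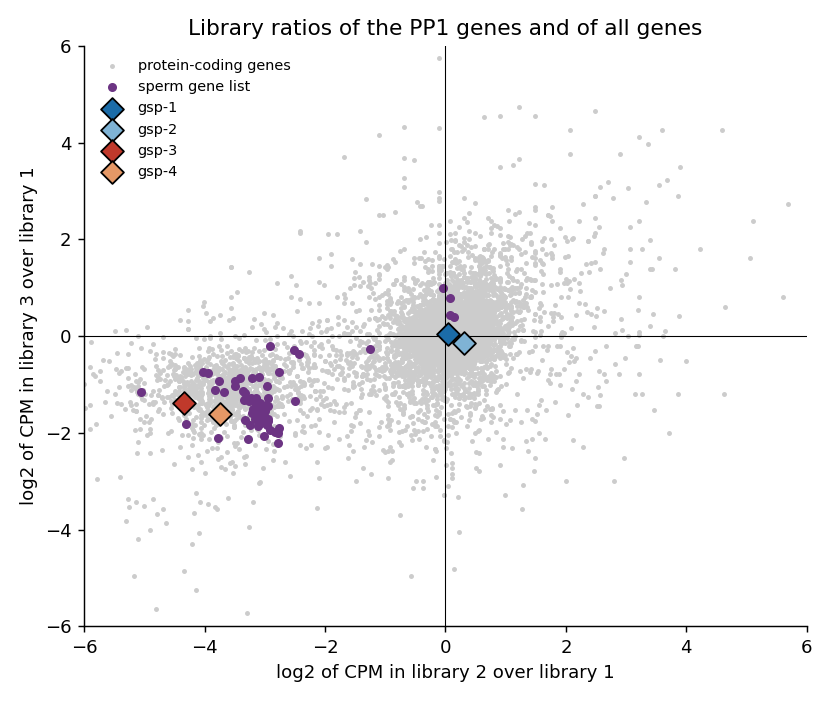
Log2 ratio of CPM in library 2 to library 1 (horizontal) against library 3 to library 1 (vertical) for protein-coding genes of mean count of at least 10 (grey, with 20 of 10048 beyond the axes), the sperm gene list (purple) and the 4 PP1 genes (diamonds). The diamonds of gsp-3 and gsp-4 lie on the side of the sperm genes, towards their lower end, at -4.34 and -3.75 on the horizontal axis, and those of gsp-1 and gsp-2 lie near 0.

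The genes nearest to each member were found over the 3 libraries by the distance between their log2 CPM, each centred on its own mean, among 8875 other protein-coding genes with at least 10 counts in every library. Nearest to gsp-3 were moa-1, C09D4.3, clec-123, Y44A6D.5 and Y38H8A.3 (now ttbk-8.1), at distances of 0.022 to 0.087. Nearest to gsp-4 were acdh-5, F17E9.5, irld-3, Y6E2A.10 and T15B12.2, at 0.021 to 0.102. As an example, clec-123 had 82.9, 4.30 and 33.6 CPM. The distance between gsp-3 and gsp-4 was 0.605, and 260 genes were nearer to gsp-3 than gsp-4 was. Of the 100 nearest genes, none for gsp-3 and 1 for gsp-4 belonged to the sperm list. Only 55 genes of that list had at least 10 counts in every library, against the 8875 genes compared. Any 100 genes would hold few of them, so these counts cannot be set apart from that share. With only 3 libraries a short distance is a description of these libraries.

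Nearest to gsp-1 were the copper transporter gene cua-1, the Golgi complex gene cogc-4, the replication helicase gene mcm-7, T23B3.1 and drh-1, at 0.0015 to 0.0053. Within a distance of 0.5 of gsp-1 lay 6270 genes, against 174 for gsp-3, so more genes lay near the level pattern of gsp-1 than near that of gsp-3. The nearest to gsp-2 were dyf-7, ptc-1, C33A12.1 (now ndua-5), sgca-1 and trap-2, at 0.0062 to 0.0171. The patched-family gene ptc-1, which acts in germline cytokinesis, had 128.8, 157.6 and 117.4 CPM, highest in library 2 as gsp-2 was.

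The neighbours of the 4 genes on the chromosome, taken by position alone, mostly did not share their levels. The gene upstream of gsp-4 on the same strand, T03F1.6, ends 127 bases before gsp-4 begins and had 22, 21 and 5 counts. The next gene downstream, F53F10.1, had 5, 4 and 5 counts. Upstream of gsp-3 on the other strand, W09C3.2 had 120, 7 and 36 counts, with a ratio of 18.4 between libraries 1 and 2, and W09C3.3 on the other side had 2 counts in all. The genes beside gsp-1, ceh-22 and F29F11.20, had 0 and 1 counts over the 3 libraries. Upstream of gsp-2, F56C9.10 had 182.3, 172.1 and 198.7 CPM. Downstream on the same strand and 69 bases away, kap-1 had 2.13, 3.47 and 2.34 CPM (31, 54 and 39 counts). It was low but highest in library 2, as gsp-2 was. No other annotated gene overlapped gsp-1, gsp-3 or gsp-4, and the small nucleolar RNA gene F56C9.12 inside an intron of gsp-2 had no count.

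PP1 belongs to the PPP family of phosphatases, and 8 other named catalytic genes of this family were compared per kilobase of exon. Of these, 6 were detected at 1 CPM in every library, against 40.2% of all protein-coding genes. The PP2A gene let-92 had 70.8, 66.6 and 74.9 CPM per kilobase in libraries 1, 2 and 3, and gsp-1 stood at 0.755, 0.824 and 0.732 of it. The PP4 genes pph-4.1 and pph-4.2 had means of 29.6 ± 1.99 and 36.5 ± 3.57 CPM per kilobase (SD, n = 3), and the PP6 gene pph-6 had 21.3 ± 1.00, all between the means of gsp-2 and gsp-1. The PP5 gene pph-5 (3.58 ± 0.913) and the calcineurin gene tax-6 (1.81 ± 0.273) were lower. The gene pph-1 had 9, 9 and 12 counts, and pef-1 had 2, 0 and 0.

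Over the 12 PPP genes of the list and the members together, gsp-3 and gsp-4 took 68.4% of the CPM per kilobase in library 1, 11.1% in library 2 and 43.4% in library 3. They ranked first and second in library 1, and seventh and eighth in library 2, where let-92 led with 24.9%, followed by gsp-1 with 20.5%. No gene among the 7 others of this list with a mean count of at least 10 was 2-fold lower in library 2 than in library 1. Of all protein-coding genes of that depth 16.3% were, and 7 genes are too few to be set apart from that share. The ratios of library 1 to library 2 of these 7 genes ran from 0.822 to 1.57. The list left out 2 genes that carry phosphatase symbols of the same series, pph-2 and pph-7, which were added after their values were seen. The first was low but had the pattern of the sperm pair, with 50, 3 and 16 counts and a ratio of library 1 to library 2 of 17.9 (95% exact binomial interval 5.77 to 89.5). The other, listed as Y71F9AL.4 in the deposited table, had 146, 129 and 156 counts. With both included, gsp-3 and gsp-4 took 67.7%, 10.9% and 42.8% of the CPM per kilobase.

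Transcripts of proteins that direct PP1 were also present. All 8 genes of a list of PP1 partners were detected at 1 CPM in every library, against 40.2% of all protein-coding genes. The highest was lab-1, whose product protects cohesion on the long arms of meiotic chromosomes. It had 311.1, 487.2 and 420.1 CPM per kilobase of exon in libraries 1, 2 and 3, the lowest value being in library 1. That was 4.41, 6.42 and 5.97 times the level of gsp-1 with gsp-2, a mean ratio of 5.60 ± 1.05 (SD, n = 3), so transcripts of this partner exceeded those of the pair of phosphatase genes in every library.

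Other partners lay near gsp-1. The ASPP family gene ape-1 had 62.6 ± 2.45 CPM per kilobase (SD, n = 3), level in libraries 1 and 2 at 176.3 and 176.4 CPM before division by length. The leucine-rich repeat regulator sds-22 had 61.9 ± 6.09 CPM per kilobase, the kinetochore scaffold gene knl-1, whose product docks PP1, had 44.4 ± 4.81, and the inhibitor-2 homologue szy-2 had 38.6 ± 1.68. The products of sds-22 and szy-2 act with PP1 to limit centriole duplication. The myosin phosphatase targeting gene mel-11 had 26.2 ± 3.40 CPM per kilobase. The RAS pathway scaffold gene soc-2 (2.34 ± 0.221) and the neurabin gene nab-1 (0.555 ± 0.148) were the lowest. No partner was 2-fold lower in library 2 than in library 1, with ratios of library 1 to library 2 from 0.639 for lab-1 to 1.56 for nab-1. Of all protein-coding genes with a mean count of at least 10, 16.3% were, and the partners are too few to be set apart from that share.

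Genes of the kinases that PP1 opposes and of the proteins that carry them were also detected at 1 CPM in every library. This held for all 7 genes of the list, against 40.2% of all protein-coding genes, and most lay close to gsp-1 in level. The Aurora B gene air-2 had 53.8, 46.1 and 45.2 CPM per kilobase of exon in libraries 1, 2 and 3. Its partners in the chromosomal passenger complex, icp-1, bir-1 and csc-1, had means of 82.0 ± 3.32, 55.5 ± 3.15 and 52.4 ± 5.13 CPM per kilobase (SD, n = 3). The checkpoint kinase gene bub-1 had 68.0 ± 7.85, the centriole kinase gene zyg-1 had 67.4 ± 12.2 and the haspin gene hasp-1 had 16.5 ± 2.37. Ratios of library 1 to library 2 ran from 0.727 to 1.17. The HORMA axis genes htp-1 and htp-2, whose products place LAB-1 on chromosomes, had 72.8 ± 5.79 and 97.1 ± 13.4 CPM per kilobase. These 2 are close copies, and their counts are uncertain for that reason. None of the 5 axis genes examined was 2-fold lower in library 2 than in library 1. The share was 16.3% over all protein-coding genes with a mean count of at least 10, from which 5 genes cannot be set apart.

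**Figure D5:**
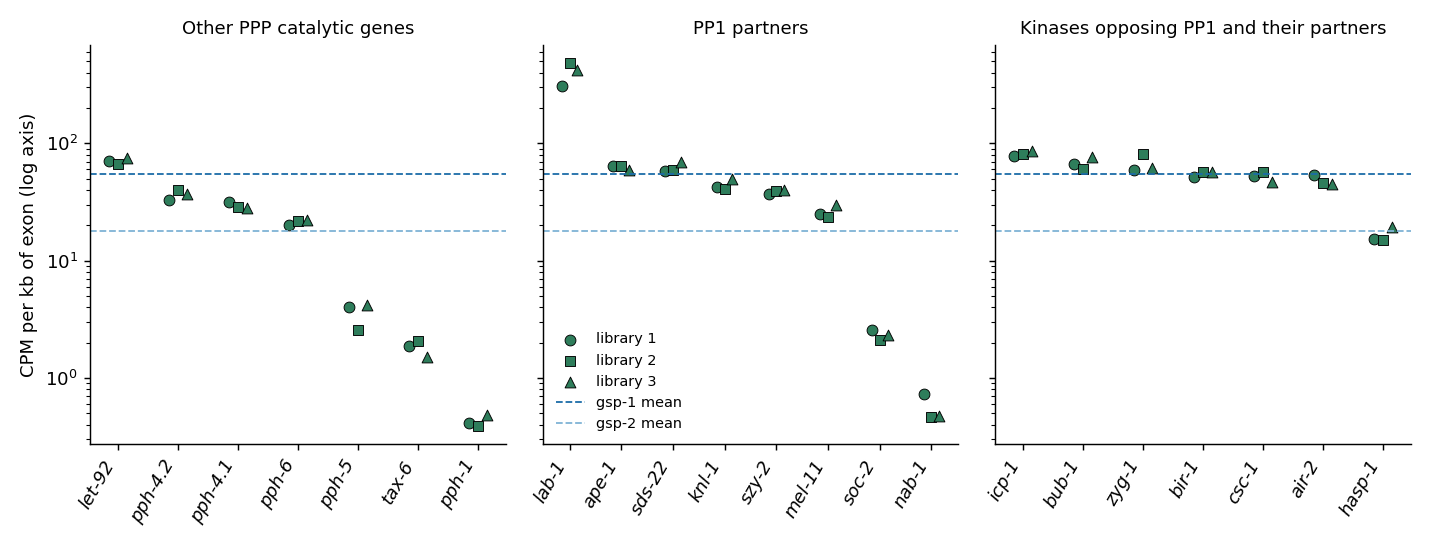
CPM per kilobase of exon on a log axis for other PPP catalytic genes, PP1 partners and the kinases opposing PP1 with their complex members, 1 point per library, with the means of gsp-1 (54.4) and gsp-2 (17.9) as dashed lines. Within each drawn gene the 3 points differ by at most 1.66-fold, the value of pph-5, and lab-1, the highest gene, differs by 1.57-fold. The gene pef-1, with no count in libraries 2 and 3, is not drawn.

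The labels call the tissue germline, and the sperm-specific name of gsp-3 and gsp-4 could be set against sperm markers only within these libraries. Each of the 6 sperm markers with a mean count of at least 10 was at least 2-fold lower in library 2 than in both other libraries. The same held for gsp-3 and gsp-4 and for 14.1% of all genes of that depth. The remaining marker, spe-42, lay below that depth with 11, 7 and 10 counts, a ratio of library 1 to library 2 of 1.68. All these markers also belong to the sperm list above and are no separate check. The ubiquitous expression of gsp-1 and gsp-2 could not be examined, as no other tissue was measured.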

How the data were processed

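The submitters' processing notes name STAR, featureCounts and build WBcel235 as the tools behind the deposited read counts per gene. Versions, annotation, strand setting and the treatment of reads that match several genes: not given in the sources used here. Each deposited count was divided by its column total to give CPM, with totals of 14523486 to 16656171 counts. Exon and coding lengths came from the Ensembl release 115 annotation of WBcel235, for 20116 of 20362 protein-coding genes. Folds between single libraries carry no test and were read at 2-fold on genes with a mean count of at least 10. Members were compared in pairs by an exact sign-flip permutation test. Alternatives used edgeR 4.0.16 (TMM), DESeq2 1.42.0 size factors, other lengths, detection minima and left-out libraries. Python 3.11.15, scipy 1.17.1 and R 4.3.3 were used, and the fold and distance steps were tested on simulated data.

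The members and lists were chosen with earlier results of these data known. A planned search for PPP genes by protein motif was replaced by listed symbols, and 2 sperm genes were matched by current symbol. The rule for named genes took the members, the listed PPP genes and partners, the 3 highest and the lowest sperm genes and the 5 nearest patterns per member. Neighbours, marker, kinase and axis genes, alg-3, alg-4, gskl-2, msp-74 and the 5 sperm genes without the pattern were added after their values were seen.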

Additional observations from a re-analysis of the deposited data

How the results depend on the processing

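Of 83 alternative values, 82 kept their direction and stayed within the spread or threshold set for them. This count is no measure of stability. For levels and for the share of the sperm pair the limit was the SD of the 3 libraries. Leaving out 1 library cannot move a mean of 3 by that much, so those values could not have failed. The mean level of gsp-1 was 104.9 CPM when scaled on protein-coding counts, against 97.1 on the column total, as that total is smaller by construction. The share of gsp-3 and gsp-4 among PP1 transcripts, 62.7 ± 30.97% (SD, n = 3), was 56.5% with coding length, 62.9% with the longest transcript and 55.1% with no length. It ranged from 50.1% without library 1 to 79.99% without library 2, and the log2 ratio of the first pair to the sperm pair, -0.95, ranged from -2.11 to -0.01. The log2 ratio of library 2 to library 1 stayed between -4.35 and -4.27 for gsp-3 and between -3.75 and -3.67 for gsp-4 under other scalings and a pseudocount of 1 CPM. Detection minima gave 4 to 7 of the 8 other PPP genes, 7 or 8 of the 8 partners and 43 to 56 of the 67 sperm genes, of which 61 were detected without library 2. With pph-2 and pph-7, chosen after seeing the data, 7 other PPP genes were detected. The planned lengths of uniquely matching sequence were not run, as no genome sequence was used here. No paired comparison of groups was possible because there is only 1 group. With 3 libraries, the exact test used here cannot go below 0.25.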
